A study of Mus musculus with 32 samples.

Results

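Enteroendocrine cells are the hormone-producing cells of the gut epithelium, and 10 genes that mark them were followed through sorted mouse intestinal stem cells. The genes were taken by symbol from the 54418 gene identifiers of the deposited count table, and all 10 were found. They are the granins Chga and Chgb, the peptide hormone precursors Sct, Sst, Cck and Tac1, the serotonin enzyme Tph1, the processing enzyme Cpe and the fate factors Neurog3 and Neurod1. Of these, 4 (Sct, Chgb, Tac1 and Sst) passed the low-count filter and were tested. The other 6 (Tph1, Neurod1, Chga, Cck, Neurog3 and Cpe) were too low to judge with the count model and are described by their counts.

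Poly-A RNA of GFP-high crypt cells, stained for the epithelial marker CD326 and with the dye DAPI, was measured by 3′ digital gene expression, a method that reads only the 3′ tail side of each transcript, so that long and short genes are counted alike. The 32 libraries form 8 groups of 4, all labelled with the strain C57BL6. WT mice (labelled Wildtype), PparD (Ppard-fl/fl), PparA (Ppara-null) and PparDA (both alleles) each received a control or a high-fat diet, and all 8 groups share the GFP-high sort. Ppara and Ppard encode nuclear receptors that bind fatty acids. The labels state neither the driver that recombines the floxed Ppard allele nor the GFP reporter's promoter, the animals' age or the length of the diet. Ppara had 0 to 5 and Ppard 0 to 7 counts per library, which is too low to check the genotype labels. The labels do not say whether the 4 libraries of a group came from separate animals, so a p-value measures the spread between these samples, which may be partly technical. By the Xist and Ddx3y values given below, each group holds libraries of both sexes, so they did not all come from the same animal. Whether libraries of the same sex did is not known.

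Crypt stem cells give rise to absorptive cells and to secretory cells, the latter when Notch signalling is low and Atoh1 is on. Neurog3, a transient basic helix-loop-helix factor, commits a secretory progenitor to the enteroendocrine fate, and Neurod1 acts after it. The differentiated cells pack hormones with granins into dense-core granules, trim the hormone precursors with enzymes such as Cpe, and release them in response to food. They are scarce among crypt cells, and a sort for stem cells is meant to leave them out.

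Library totals ran from 612672 to 724155 counts, so that 1 count corresponded to 1.38 to 1.63 CPM (counts per 1000000) before scaling. The CPM values given here are scaled with TMM factors, which moves these limits slightly. The summed CPM of the stem cell list, which holds Lgr5 and Olfm4, was 11780 to 13680 as a group mean, against 28.5 to 93.0 for the 10 enteroendocrine genes. Most of the stem cell sum was Olfm4, with a mean of 10630 CPM over all libraries, while Lgr5 had 44.4 CPM. Marker lists of other secretory cells were also high, with group means of 2189 to 5445 CPM for goblet and 6053 to 21400 CPM for Paneth cells. Markers of enteric neurons and glia, which share several granule genes, summed to no more than 8.07 CPM in any library, and 4 of those 8 markers were at 0 in all 32. The column names number the libraries from 1 to 32, in 4 runs of 8 that each hold every group once. Xist stood at 465 to 928 CPM in runs 1 and 3 and at no more than 9.70 CPM in runs 2 and 4, where Ddx3y stood at 14.3 to 38.8 CPM. Run and sex cannot be told apart. In bulk RNA, fewer enteroendocrine cells and less RNA per cell cannot be told apart either.

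The 10 genes differed in how often they were seen. Sct (ENSMUSG00000038580, chromosome 7, 141278330 to 141279133, minus strand, mm10) encodes secretin, which makes the pancreas release bicarbonate, and was the only one of the 10 with a count in every library. It had 1 to 29 counts per library with a median of 10 and a total of 364. Chgb (ENSMUSG00000027350, chromosome 2, 132781278 to 132795079, plus strand) encodes a granin that helps form secretory granules, and it had 0 to 19 counts with a total of 210. Tac1 (ENSMUSG00000061762, chromosome 6, 7554879 to 7565834, plus strand), the precursor of substance P and a gene of serotonin-producing enterochromaffin cells, had 0 to 21 counts with a total of 191. Sst (ENSMUSG00000004366, chromosome 16, 23889573 to 23890958, minus strand), the precursor of the inhibitory hormone somatostatin made by D cells, had 0 to 24 counts with a total of 164. Its counts fell in few libraries: 7 libraries held none and 5 held 10 or more.

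Among the genes under the filter, Tph1 (ENSMUSG00000040046, chromosome 7, 46644641 to 46672537, minus strand), the rate-limiting enzyme of serotonin synthesis in the gut, came closest to it, with 0 to 10 counts and a total of 127. Neurod1 (ENSMUSG00000034701, chromosome 2, 79452521 to 79456751, minus strand) had 0 to 6 counts and a total of 69. It overlaps Cerkl on the same strand, which had 2 counts in all, and the noncoding Gm26755 on the other strand. Chga (ENSMUSG00000021194, chromosome 12, 102554969 to 102565028, plus strand), the granin most used as a histological marker of these cells, had 0 to 8 counts and a total of 65. Cck (ENSMUSG00000032532, chromosome 9, 121489824 to 121495694, minus strand), the precursor of cholecystokinin of I cells, had 43 counts in all and Neurog3 (ENSMUSG00000044312, chromosome 10, 62133090 to 62134763, plus strand) had 29, and each was at 0 in 15 libraries. Neurog3 overlaps Fam241b on the opposite strand, a gene with 138 counts in all, and the labels do not say whether the counting used strand. Cpe (ENSMUSG00000037852, chromosome 8, 64592542 to 64693054, minus strand), carboxypeptidase E, had 9 counts in 8 libraries. A count of 0 allows up to 3 counts in that library, for counting error only, so none of these genes can be called absent.

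**Figure D1:**
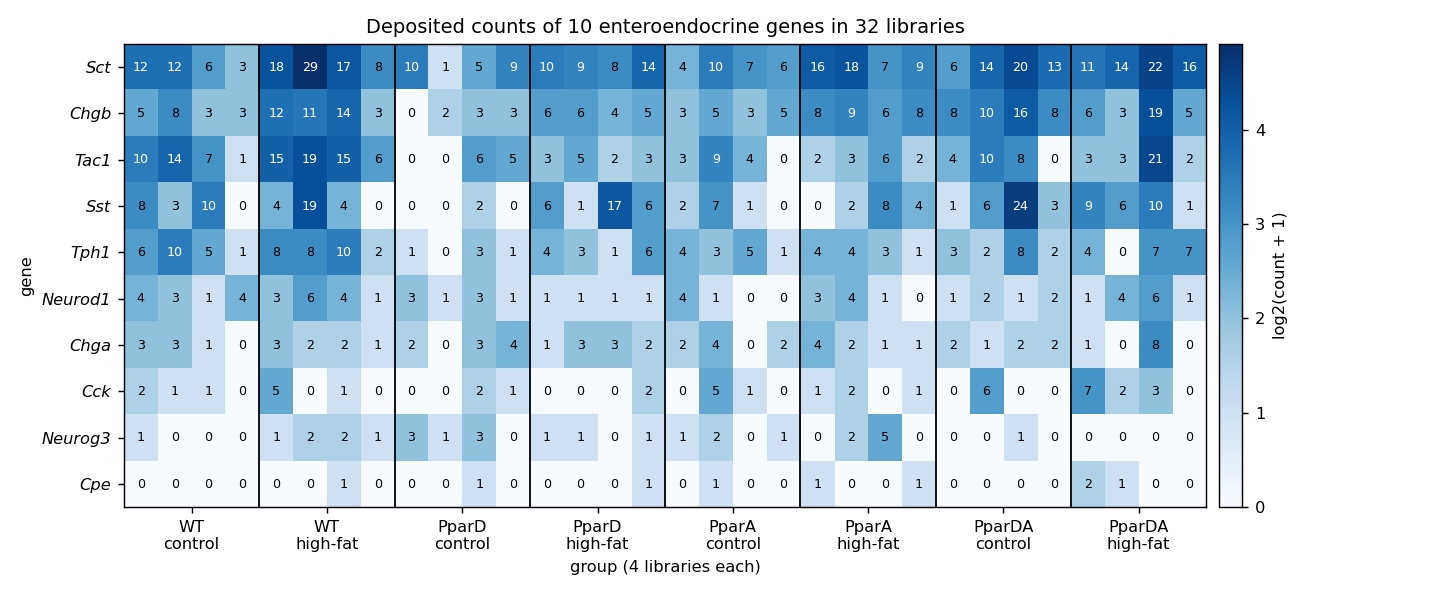
Deposited counts of the 10 genes (rows, ordered by total) in the 32 libraries (columns, in 8 groups of 4, ordered by library number within a group). The number in each cell is the count and the shade its log2(count + 1). Sct has counts in every library, while Cpe is at 0 in 24 and Cck and Neurog3 are at 0 in 15 each.

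The spread within groups differed between the genes. The variance of counts within groups, divided by the mean, is about 1 where only counting error of independent molecules acts. Copies of one molecule raise it too, and the use of molecular identifiers is not given in the sources used here, so the ratios are a description. It was 1.0 for Cpe, 1.21 for Neurod1 and 1.32 for Neurog3. It stood at 1.64 for Chga, 1.76 for Tph1, 1.94 for Chgb and 2.28 for Sct. The hormones Cck, Tac1 and Sst had 3.0, 4.05 and 6.99, of which the first rests on 43 counts. The model's coefficient of biological variation was 29.9% for Chgb and 30.9% for Sct, but 68.5% for Tac1 and 93.7% for Sst, against 21.7% in common over all tested genes.

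The stretches before the start sites of the 4 tested genes are shown because these genes carry the comparisons below, and because short motifs known from hormone gene promoters could be looked up in them. Each is 250 bases, from RefSeq (GRCm38.p6), in gene direction and ending just before RefSeq's start site. The gene coordinates given above are from GENCODE, whose starts lie further upstream for Chgb, Sst and Tac1. By those coordinates the Chgb window lies wholly inside the gene, and the Sst and Tac1 windows lie partly inside theirs. Capitals mark the cAMP response element TGACGTCA, the E-boxes CAGATG and CAGCTG, and the TATA box TATAAA.
Sct promoter, chr7:141279134-141279383, minus strand: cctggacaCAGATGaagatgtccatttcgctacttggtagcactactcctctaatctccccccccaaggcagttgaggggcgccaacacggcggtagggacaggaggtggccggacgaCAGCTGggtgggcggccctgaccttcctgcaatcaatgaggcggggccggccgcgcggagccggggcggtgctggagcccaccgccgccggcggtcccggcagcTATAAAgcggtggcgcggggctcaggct
Chgb promoter, chr2:132781392-132781641, plus strand: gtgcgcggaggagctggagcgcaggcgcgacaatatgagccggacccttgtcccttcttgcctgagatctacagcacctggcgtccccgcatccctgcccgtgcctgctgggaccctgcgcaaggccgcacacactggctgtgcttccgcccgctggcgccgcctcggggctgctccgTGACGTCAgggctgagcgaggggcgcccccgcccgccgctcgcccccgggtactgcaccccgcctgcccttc
Sst promoter, chr16:23890845-23891094, minus strand: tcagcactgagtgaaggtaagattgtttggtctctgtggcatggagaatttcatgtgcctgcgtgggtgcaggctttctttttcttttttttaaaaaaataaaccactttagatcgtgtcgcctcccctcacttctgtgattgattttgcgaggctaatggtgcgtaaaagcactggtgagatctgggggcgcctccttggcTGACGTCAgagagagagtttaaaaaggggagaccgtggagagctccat
Tac1 promoter, chr6:7554811-7555060, plus strand: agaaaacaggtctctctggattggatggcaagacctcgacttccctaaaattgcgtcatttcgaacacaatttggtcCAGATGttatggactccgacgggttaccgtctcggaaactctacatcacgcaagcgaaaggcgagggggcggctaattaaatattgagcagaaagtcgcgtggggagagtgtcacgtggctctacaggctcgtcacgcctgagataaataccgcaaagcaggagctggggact
The cAMP response element holds the letters bound by CREB family factors. It begins 48 bases before the RefSeq start of Sst and 72 bases before that of Chgb. By the GENCODE coordinates both of these sites lie inside the genes. On either strand the element is present in 1.55% of 32851 promoter windows of this length. It is in no other of the 10 windows that cover 9 of the 10 genes (Tph1 has 2, Cpe none). The E-box CAGATG, or CATCTG on the other strand, is in the windows of Sct, Tac1 and Cck and in 14.4% of all windows. The palindromic E-box CAGCTG is in those of Sct, Chga and Neurog3 and in 13.0% of all windows. TATAAA, searched on the gene strand alone, begins 28 bases before the start of Sct and is in 7.59% of all windows. None of these motifs overlap in the 4 windows, and a match of letters is not evidence of binding.

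The diet comparison asked whether these genes were higher or lower on the high-fat than on the control diet. On the high-fat diet Sct stood higher in the mean in all 4 genotypes and Chgb in all but PparDA, but neither passed the test in any genotype or in the average over genotypes. In WT, Sct had 12, 12, 6 and 3 counts on the control diet in runs 1 to 4 and 18, 29, 17 and 8 on the high-fat diet. The high-fat library was the higher in each run, yet the ranges of the groups overlapped. The means were 11.7 ± 6.16 CPM (SD, n = 4) and 26.1 ± 13.0 CPM, and the log2 fold change was 1.12 ± 0.43 (SE; edgeR unadjusted p = 0.0132, adjusted p = 0.54).

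In the mutants the Sct difference was of the same sign. PparD had 10, 1, 5 and 9 counts on the control and 10, 9, 8 and 14 on the high-fat diet, a log2 fold change of 0.70 ± 0.49 (SE). PparA had 4, 10, 7 and 6 against 16, 18, 7 and 9 counts, a log2 fold change of 0.93 ± 0.47. PparDA had 6, 14, 20 and 13 against 11, 14, 22 and 16 counts, a log2 fold change of 0.27 ± 0.40. The groups overlapped in each of these genotypes. Averaged over the 4 genotypes, the log2 fold change was 0.75 ± 0.22 (edgeR unadjusted p = 0.00206, adjusted p = 0.19), which did not pass. Sct was higher on the high-fat diet in 15 of 16 pairs of libraries that share genotype and run, or in 13 without TMM factors. Runs 1 and 3 alone gave an averaged log2 fold change of 0.65 ± 0.30, and runs 2 and 4 alone gave 0.88 ± 0.36 (edgeR adjusted p = 0.56 and 0.86).

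Chgb, the granin, had a higher mean on the high-fat diet in WT, PparD and PparA, and passed the test in none of them. WT libraries had 5, 8, 3 and 3 counts on the control and 12, 11, 14 and 3 on the high-fat diet (6.79 ± 3.41 and 14.4 ± 6.93 CPM; SD, n = 4), and the fitted log2 fold change was 1.06 ± 0.48 (SE), with an edgeR adjusted p of 0.62. The last high-fat library of WT was as low as the lowest control libraries. In PparD the counts were 0, 2, 3 and 3 against 6, 6, 4 and 5, and in PparA 3, 5, 3 and 5 against 8, 9, 6 and 8. The log2 fold changes were 1.33 ± 0.62 and 0.99 ± 0.51, and neither passed (edgeR adjusted p = 0.96 and 0.88). In these comparisons 0.0851% and 0.136% of all tested genes were called by that test. In both mutants the diets did not overlap, in PparD with at most 3 against at least 4 counts. How many of all tested genes separate in this way was not counted. PparDA had 8, 10, 16 and 8 counts on the control and 6, 3, 19 and 5 on the high-fat diet, a log2 fold change of -0.32 ± 0.43. Here the high-fat library was the lower in 3 of 4 run pairs, all but that of run 3. The difference between the diet effects of PparDA and WT was -1.38 ± 0.65 for Chgb (edgeR unadjusted p = 0.0417, adjusted p = 0.83) and -0.85 ± 0.59 for Sct (adjusted p = 0.87), so neither diet effect was shown to differ between these genotypes. Averaged over the 4 genotypes, Chgb differed by 0.77 ± 0.26 (adjusted p = 0.32), with 1.14 ± 0.38 within runs 1 and 3 and 0.30 ± 0.32 within runs 2 and 4.

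Sst and Tac1 varied most from library to library. In PparD, Sst had 0, 0, 2 and 0 counts on the control and 6, 1, 17 and 6 on the high-fat diet (0.739 ± 1.48 and 10.7 ± 9.51 CPM; SD, n = 4). The high-fat library was the higher in each of the 4 run pairs, and the groups overlapped at 1 to 2 counts. Its log2 fold change of 3.59 ± 1.40 (SE; edgeR unadjusted p = 0.0156, adjusted p = 0.85) did not pass, nor did the 3.34 ± 1.41 of runs 1 and 3 or the 4.81 ± 2.92 of runs 2 and 4. Leaving out single libraries gave 2.82 to 5.87, the latter without library 19, which held both control counts, so that the fitted value then has a control group at 0 and is no bound. In WT, Sst had 8, 3, 10 and 0 counts against 4, 19, 4 and 0, so that 1 library, number 10 with 19 counts, held most of the high-fat counts. The WT log2 fold change of 0.37 ± 0.93 turned to -0.96 without that library. Tac1 in WT had 10, 14, 7 and 1 counts on the control and 15, 19, 15 and 6 on the high-fat diet, higher in each run pair, with a log2 fold change of 0.78 ± 0.66 (adjusted p = 0.85). In PparDA, Tac1 had 4, 10, 8 and 0 against 3, 3, 21 and 2 counts, and its log2 fold change of 0.42 ± 0.77 was -0.98 without library 24, which held the 21 counts.

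**Figure D2:**
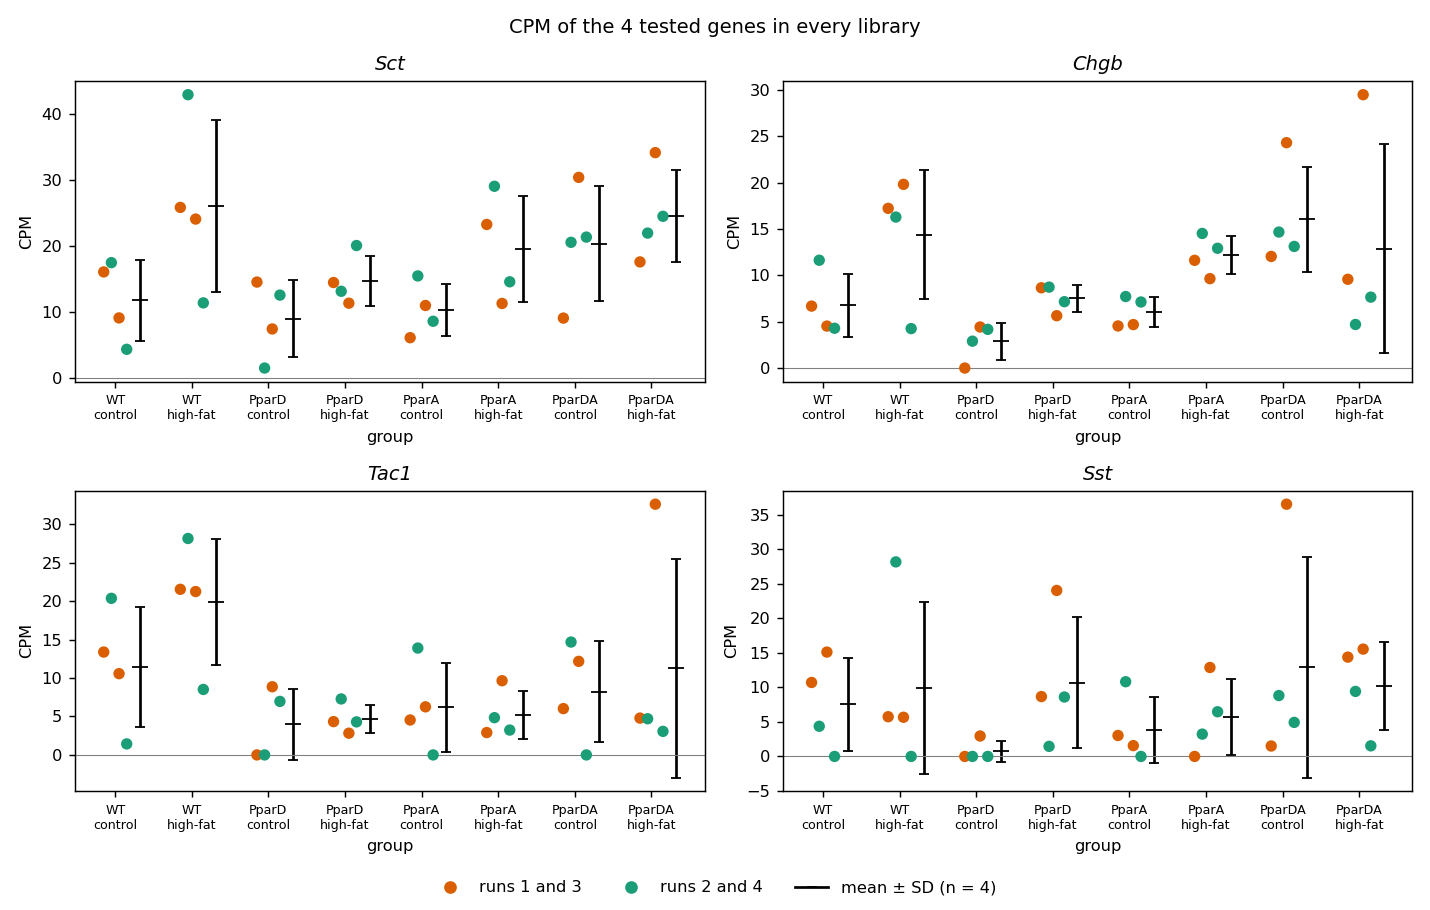
CPM of Sct, Chgb, Tac1 and Sst (y axes, linear, with different ranges) in the 8 groups (x axis); each point is 1 library, coloured by pair of runs, and bars show the mean ± SD of 4 libraries. Sct is highest in the mean in WT on the high-fat diet (26.1 CPM) and lowest in PparD on the control diet (8.97 CPM), and the points of most groups overlap.

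None of the 4 tested genes was called in any of the 5 diet comparisons. The share of all 5872 tested genes called was 0.102% for the diet in WT, 0.0851% in PparD, 0.136% in PparA, 0.0341% in PparDA and 0.324% in the average. Limma called none of the 4 in these comparisons either. DESeq2 called none of those to which it gave an adjusted p, which were the 4 in PparD and Sct in the average (adjusted p = 0.0994). It gave none for the other 15 of these 20 tests, because its own filter on low means left them out. Unadjusted p-values under 0.05 were found for Sct and Chgb in WT, for Chgb and Sst in PparD, for none in PparA and PparDA, and for Sct and Chgb in the average. The same threshold took 7.66%, 4.99%, 5.79%, 8.79% and 9.04% of all tested genes. All 4 log2 fold changes were above 0 in WT and in PparD, with medians of 0.92 and 1.01 against a median near 0 over all tested genes (-0.0042 and -0.0063). In PparDA 2 lay above and 2 below 0. These 4 are the genes with enough counts to pass the filter and do not stand for the 10. Chgb, Tac1 and Sst would not have passed it without their WT high-fat libraries, nor Sst without its PparD high-fat libraries. Their signs and the medians are therefore a description.

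**Figure D3:**
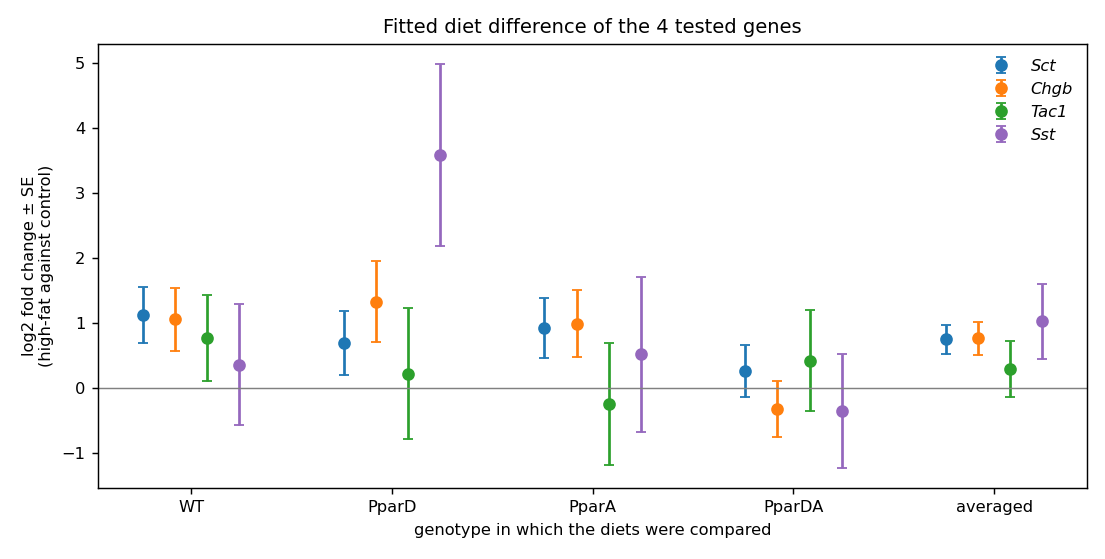
Fitted log2 fold change of the high-fat against the control diet (y axis) in each genotype and averaged over the 4 (x axis) for the 4 tested genes; points are estimates and bars ± 1 SE. The bars of Sct and Chgb are short beside those of Tac1 and Sst, and the Sst value in PparD, 3.59, has the widest bar at 1.40.

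The 6 genes under the filter were compared between diets within each genotype by a two-sided exact permutation test of CPM, which with 4 libraries against 4 cannot go below p = 0.0286. Of these 24 tests, 1 reached that value unadjusted, Neurog3 in WT, and its Benjamini-Hochberg adjusted p over the 24 was 0.69. Neurog3 had 1, 0, 0 and 0 counts on the control and 1, 2, 2 and 1 on the high-fat diet in WT (0.334 ± 0.669 and 2.16 ± 0.851 CPM). All 8 libraries lie at or under 3 counts, the level that a count of 0 allows, so this difference was not detectable at this depth. In PparDA, Neurog3 had 1 count in 4 control libraries and 0 in 4 high-fat libraries. Tph1 had 28 counts on the high-fat and 22 on the control diet in WT, and 14 against 5 in PparD (exact permutation p = 0.17). Neurod1 had 12 against 6 counts in PparDA and 4 against 8 in PparD. Chga was near level, with 8 against 7 counts in WT, 9 against 9 in PparD, 8 against 8 in PparA and 9 against 7 in PparDA, and 8 of those last 9 high-fat counts came from library 24. Over the 24 tests the mean was higher on the high-fat diet in 17 and lower in 7, and in 10 no library had more than 3 counts.

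Summed over the 10 genes, the level was 53.8 ± 26.9 CPM (SD, n = 4) in control-fed and 93.0 ± 45.9 CPM in high-fat-fed WT. It was 28.5 ± 16.1 and 49.5 ± 7.10 CPM in PparD, 40.4 ± 22.2 and 58.5 ± 12.6 CPM in PparA, and 70.9 ± 37.3 and 80.0 ± 47.0 CPM in PparDA. The high-fat library was the higher in all 4 run pairs of WT, PparD and PparA and in 2 of 4 of PparDA, which makes 14 of 16 pairs. In the mutants each control library was numbered before its high-fat partner in every run, so number and diet cannot be told apart there. Library 24 (PparDA, high-fat) had the highest sum, 149.1 CPM, followed by library 10 (WT, high-fat) with 142.3 CPM. The lowest, 7.25 CPM, was a PparD library on the control diet. No test was made of the sum. Goblet cell markers also had higher means with high-fat feeding in WT, PparD and PparA. In WT their summed level was 3643 ± 1318 CPM in control-fed and 5271 ± 1567 CPM in high-fat-fed libraries (SD, n = 4). It was 2189 ± 598 and 3665 ± 892 CPM in PparD, 3504 ± 1144 and 5195 ± 888 CPM in PparA, and 5445 ± 1747 and 4999 ± 2029 CPM in PparDA. For the diet averaged over genotypes, all 10 tested goblet genes and all 10 tested Paneth genes had a log2 fold change above 0 and 0 of either list were called. Of these, 9 goblet and 5 Paneth genes had an unadjusted p under 0.05 by edgeR, against 9.04% of all tested genes. The 15 tested stem cell markers went the other way. All 15 log2 fold changes were below 0, with a median of -0.13, and none passed after adjustment. For 6 of the 15 the edgeR p before adjustment was below 0.05. The part of goblet, Paneth and stem cell markers in the difference of the 10 enteroendocrine genes was not tested.

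**Figure D4:**
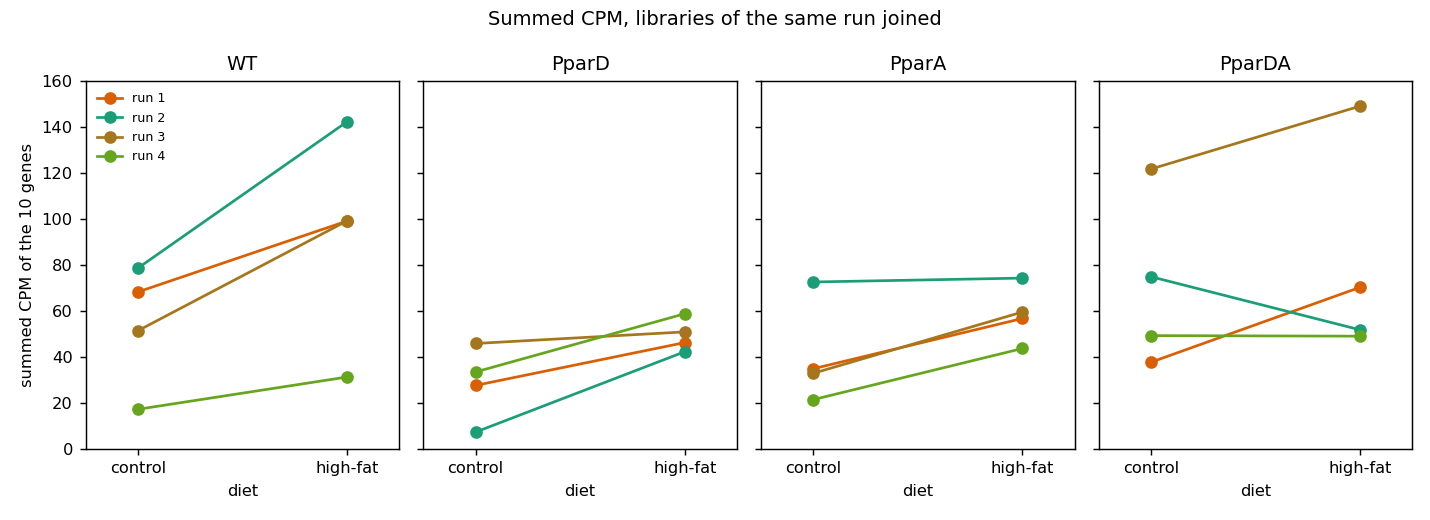
Summed CPM of the 10 genes (y axis) on the control and the high-fat diet (x axis) in each genotype; each point is 1 library, and lines join the libraries of a run. Lines rise in all 4 runs of WT, PparD and PparA, and in PparDA in 2 of 4.

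The genotype comparisons set the groups labelled PparD, PparA and PparDA against WT and against each other. The one call among the 84 tests of the 4 genes in 21 comparisons was Chgb, which was higher in PparDA than in PparD on the control diet. PparDA libraries had 8, 10, 16 and 8 counts and PparD libraries 0, 2, 3 and 3. The means were 16.1 ± 5.63 and 2.88 ± 2.03 CPM (SD, n = 4), and the fitted log2 fold change was 2.41 ± 0.56 (SE), with an edgeR adjusted p of 0.0196. At this contrast 10.5% of all tested genes had an unadjusted p under 0.05, as did Chgb, Sct and Sst. In this comparison 1.19% of all tested genes were called, and 0.8% of all tested genes were called higher. Sct, with 53 against 25 summed counts, had a log2 fold change of 1.16 ± 0.47 (adjusted p = 0.32), Sst 3.86 ± 1.36 (adjusted p = 0.22) and Tac1 1.05 ± 0.91 (adjusted p = 0.79). The Sst value was 2.55 without library 23, which held 24 of the 34 counts of PparDA, and 6.15 without library 19, which held both counts of PparD and leaves that group at 0, so that this fitted value is no bound.

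The Chgb call was kept by DESeq2 (log2 fold change 2.49 ± 0.67, adjusted p = 0.0189) and by limma on the deposited log2 CPM (2.35 ± 0.50, adjusted p = 0.00799). It was lost in runs 1 and 3 alone (2.96 ± 0.81, edgeR adjusted p = 0.17) and in runs 2 and 4 alone (1.92 ± 0.67, adjusted p = 0.36), which hold 2 libraries a group. It was also lost without library 3 (2.02, adjusted p = 0.0718) or library 11 (2.41, adjusted p = 0.064) of PparD, or library 23 of PparDA (2.14, adjusted p = 0.0899). Markers of other lineages also stood higher in PparDA: 5 of the 10 tested goblet cell genes were called higher (Muc2, Fcgbp, Zg16, Clca1 and Klk1), and the summed CPM of the goblet list was 5445 ± 1747 in PparDA and 2189 ± 598 in PparD. Summed tuft cell markers stood at 273 ± 104 and 134 ± 33.3 CPM with 0 of 5 tested genes called (4 at an unadjusted p under 0.05, edgeR), and Paneth markers at 17050 ± 16320 and 6053 ± 6770 CPM with 0 of 10 called (4 at an unadjusted p under 0.05). Of 10 tested markers of absorptive enterocytes 10 had a log2 fold change above 0 and 0 were called (5 at an unadjusted p under 0.05), with sums of 1960 ± 204 and 1306 ± 173 CPM. Their part in the Chgb difference was not tested.

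Against the other groups on the control diet Chgb in PparDA did not pass. Its log2 fold change was 1.22 ± 0.48 against WT (edgeR adjusted p = 0.23) and 1.39 ± 0.49 against PparA (adjusted p = 0.61), whose libraries had 3 to 8 and 3 to 5 counts. The comparisons with PparD, WT and PparA share the same PparDA libraries. In the order of group means Chgb ran from PparDA on the control diet (16.1 CPM) through the high-fat groups of WT, PparDA and PparA (14.4, 12.9 and 12.2 CPM) to PparD on the high-fat diet (7.55 CPM). WT, PparA and PparD on the control diet followed with 6.79, 6.02 and 2.88 CPM. Neighbours in that order overlapped in their ranges, except PparA on the control diet (at least 4.54 CPM) above PparD on the control diet (at most 4.43 CPM), and PparA high-fat (at least 9.65 CPM) above PparD high-fat (at most 8.74 CPM). In counts the limits met, at 3 on the control and at 6 on the high-fat diet. PparA was not tested against PparD, and how many of all tested genes separate so was not counted.

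Among the groups fed the high-fat diet, Tac1 was highest in WT and lower in the mean in the 3 mutants. WT libraries had 15, 19, 15 and 6 counts, PparD 3, 5, 2 and 3, PparA 2, 3, 6 and 2, and PparDA 3, 3, 21 and 2. The WT range did not overlap that of PparD, while its lowest library met the highest of PparA. How many of all tested genes separate in this way was not counted. The comparison of PparD with WT called 0.017% of all tested genes. The log2 fold changes against WT were -2.04 ± 0.77 for PparD, -1.91 ± 0.78 for PparA and -0.80 ± 0.68 for PparDA (SE; edgeR adjusted p = 0.99, 0.30 and 0.68), and none passed. Library 24 held 21 of the 29 PparDA counts, and without it the PparDA value was -2.20. These 3 comparisons share the WT libraries, without which Tac1 would not have passed the low-count filter, so they are a description. Without a low-count filter the first and the second passed (adjusted p = 0.00179 and 0.00232), as did Sst in PparD against WT on the control diet (log2 fold change -3.08, adjusted p = 0.0193). Over all genes that setting called 83, 288 and 85 in these 3 comparisons, against 1, 44 and 12 with the filter. That setting also called Sst higher in PparDA than in PparD on the control diet (adjusted p = 6.07e-06), Sst higher on the high-fat diet in PparD (adjusted p = 0.000336) and Sct higher on that diet in the average (adjusted p = 0.00307). In these comparisons it called 325, 78 and 148 genes over all, against 70, 5 and 19 with the filter. Tph1, Neurod1, Chga, Cck, Neurog3 and Cpe, which lie under the filter, were not called even then.

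In the 6 comparisons of a mutant with WT, 0 of the 4 genes were called. On the control diet the share of all tested genes called was 0.204% for PparD, 0.562% for PparA and 1.87% for PparDA, and on the high-fat diet 0.017%, 0.749% and 1.57%. Unadjusted p-values under 0.05 were found for Sst in PparD and Chgb in PparDA on the control diet, and for Tac1 in PparD and in PparA with the high-fat diet. That threshold took 7.71%, 8.89% and 13.8% of all tested genes on the control diet and 3.78%, 11.7% and 13.6% on the high-fat diet. The Ppara-null effect averaged over Ppard genotype and diet called 7.58% of all tested genes and none of the 4, with Chgb nearest at 0.69 ± 0.26 (edgeR adjusted p = 0.11). Chgb was the 1 gene of the 4 with an unadjusted p under 0.05 there, against 19% of all tested genes. The averaged Ppard effect called 0.954% of genes and none of the 4, with Chgb at -0.16 ± 0.26 and Sct at 0.03 ± 0.23 (none at an unadjusted p under 0.05, against 12.3% of all tested genes). Limma also called none of the 4 in these 8 comparisons, and DESeq2 none of those to which it gave an adjusted p (it gave none for 3 of the 4 in PparD against WT on the control diet and for all 4 in the averaged Ppard effect).

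The other comparisons also called none of the 4 by edgeR or limma, or by DESeq2 where it gave an adjusted p. When the diet effect of a mutant was set against the WT one, 0.0511% (PparD), 0.153% (PparA) and 0% (PparDA) of all tested genes were called. Unadjusted p-values under 0.05 were found there for 0, 0 and 1 of the 4, the 1 being Chgb, against 3.61%, 8.19% and 5.77% of all tested genes. PparDA against PparA called 0.136% on the control and 0.272% on the high-fat diet, with Chgb and Sct under 0.05 unadjusted on the former and 0 of the 4 on the latter, against 6.28% and 12.5%. PparDA against PparD with high-fat feeding called 1.58% of all tested genes, and 0 of the 4 had an unadjusted p under 0.05, against 12.3%.

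Other genes of the same lineage were mostly as low as the 10. Of 12 other gut hormone genes 3 passed the filter: Gcg, the glucagon-like peptide precursor of L cells, Gip of K cells, and Ghrl, the ghrelin precursor of X cells. Gcg had 0 to 49 counts per library, Gip 0 to 109 and Ghrl 0 to 44. None of the 3 was called for the diet, with averaged log2 fold changes of 0.61 ± 0.33, 0.20 ± 0.46 and 0.54 ± 0.44 (edgeR; 0 at an unadjusted p under 0.05). Gip was called higher in Ppara-null libraries averaged over Ppard genotype and diet (1.47 ± 0.44, adjusted p = 0.0363). Of 10 tested markers of absorptive enterocytes 7 were also called higher in that comparison, in which 7.58% of all tested genes were called. Their part in the Gip difference was not tested. Nts, the neurotensin precursor, was at 0 in 22 libraries and Pyy in 21.

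Of 23 other enteroendocrine fate factors 2 passed the filter, Sox4 and Hes6, and neither was called for the diet (averaged log2 fold changes -0.05 ± 0.15 and 0.03 ± 0.23; edgeR, 0 at an unadjusted p under 0.05). Atoh1, the switch to secretory fate, had 0 to 9 counts, and Pax4 and Pax6, which act after Neurog3, had at most 4 and 1. Of 41 granule, processing and amine genes 39 were found in the table and 5 passed the filter. Maob, an amine-degrading enzyme, and Reg4, a secreted lectin of enteroendocrine and deep crypt secretory cells, were called higher in PparDA than in PparD on the control diet (1.56 ± 0.33 and 2.14 ± 0.42; adjusted p = 0.00889 and 0.00424). Both were also called in PparDA against WT on the control diet and in the averaged Ppara-null effect. Fam183b was called higher on the high-fat diet in the average (0.42 ± 0.09, adjusted p = 0.0302), while Reg4 missed it (0.83 ± 0.20, adjusted p = 0.0625). Ddc, which makes serotonin from the product of Tph1, and Tm4sf4 were not called in these comparisons.

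After group means were removed, most of the 10 genes tended to vary in the same direction from library to library, many pairs of them weakly. Of their 45 pairs, 41 had a Pearson r above 0 over the 32 libraries, 9 had at least 0.5 and the median was 0.31. The highest were Chgb with Tac1 (0.57), Tac1 with Tph1 (0.56), Sst with Tac1 (0.55) and Chga with Sct (0.55). With the run removed as well, Sst with Tac1 fell to 0.32 while Chgb with Tac1 stayed at 0.52. The 4 pairs below 0 all held Cpe or Neurog3, the sparsest of the 10. Cpe had an r of 0.51 with Cck and 0.20 with Sst, and from -0.05 to 0.08 with the others. All pairs share libraries and their depth, and pairs of other genes were not counted, so these values are a description.

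Genes outside the 10 were ranked by the correlation of their log2 CPM with the mean log2(CPM + 1) of the 10, over 32 libraries with group means removed. The 8 closest were Tff3 (r = 0.86), Agr2 (0.84), Guca2a (0.83), Ghrl (0.82), Gcg (0.79), Hepacam2 (0.76), Tm4sf4 (0.73) and Rgs13 (0.69). Tff3 and Agr2 are goblet cell genes, Guca2a encodes guanylin, Ghrl and Gcg are hormone precursors, and Rgs13 marks tuft cells. Over all 5868 genes compared the median r was 0.0012 and the 99th percentile 0.49. With the run removed as well, the 8 values lay between 0.70 and 0.83.

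**Figure D5:**
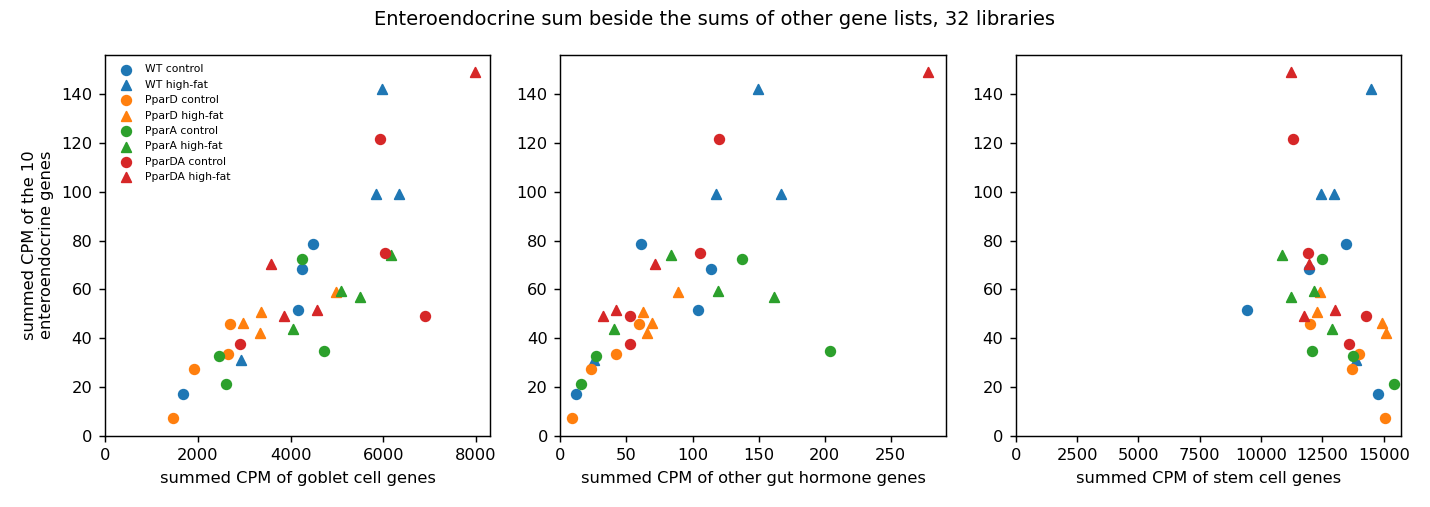
Summed CPM of the 10 enteroendocrine genes (y axis) against the summed CPM of the goblet list, of the other gut hormones and of the stem cell list (x axes) in 32 libraries; colours are genotypes, circles the control and triangles the high-fat diet. Library 24 lies at the top (149.1 CPM) and is high for goblet (7978 CPM) and other hormone genes (278.0 CPM). Stem cell sums, which are mostly Olfm4, lie between 9440 and 15400 CPM.

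Between runs 1 and 3 and runs 2 and 4 none of the 4 tested genes was called (1.33% of all tested genes were; 0 of the 4 at an unadjusted p under 0.05 by edgeR, against 14.5% of all tested genes). The largest difference was that of Sst, 0.82 ± 0.50 higher in runs 1 and 3 (adjusted p = 0.48). The median summed CPM of the 10 genes was 51.5, 73.4, 55.4 and 38.5 in runs 1 to 4.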

How the data were processed

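Expression was measured in 32 libraries of sorted cells in 8 groups of 4. The deposited table holds expected counts, which the authors gave as whole numbers, and a second deposited table holds log2(CPM + 1) values of the authors. Per the submitters' processing notes, the tools were R 4.0.2, Salmon 1.1.0 and edgeR 3.30.2 with the build mm10, without their roles; the use of molecular identifiers is not given in these sources. Reads without identifiers are not independent molecules, so limits for a count of 0 cover counting error only.

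Of 54418 identifiers 54096 matched a symbol in GENCODE M21 (GRCm38). The filterByExpr function of edgeR 4.0.16 (minimum count 10, minimum total 15) kept genes with at least about 14.8 CPM in at least 4 libraries, 5872 genes holding 97.06 to 97.72% of counts. A gene that passes through 1 high group alone is therefore in the test because it is high there. Chgb, Tac1 and Sst passed only with their WT high-fat libraries included. TMM factors were 0.938 to 1.07. One quasi-likelihood model with a coefficient per group (glmQLFit, glmQLFTest; R 4.3.3) gave 21 two-sided comparisons over all tested genes, adjusted by Benjamini-Hochberg within each, called under 0.05. The edgeR test was run on simulated data first. DESeq2 1.42.0 and limma 3.58.1 (on the deposited log2 CPM) were alternatives, beside other scalings, no filter, a robust prior, pairs of runs, a run block and each library left out. CPM values use full library totals and TMM factors.

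The members, gene lists and the pairs of runs were chosen with earlier results of these data known. Named genes are the 10 members, genes of a list that were called in a comparison, otherwise up to 3 tested genes with the smallest unadjusted p, and the 8 genes most like the 10. Under-filter genes named from the lists (Nts, Pyy, Atoh1, Pax4, Pax6), Ddc and Tm4sf4 were chosen after their values were seen. The column names carry library numbers but no replicate number. One gene that this rule gives is not reported here.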

Additional observations from a re-analysis of the deposited data

Results flagged for a closer look

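In 13 of 88 combinations of group and quantity (the 10 genes and their sum, 8 groups) 1 library stood apart from the other 3 by more than Dixon's 95% critical value for 4 samples allows. Chance flags about 1 in 20 groups, and with counts this low a single count is often enough. Above 3 counts lay Chga in PparDA on the high-fat diet, whose highest library stood at 12.42 CPM, Tac1 in the same group with 32.61 CPM, and Cck in PparDA on the control diet with 8.809 CPM. The first pair come from library 24, which had the highest summed CPM.

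The others rest on at most 2 counts in the library that stood apart. They are the lowest library of Chga in PparDA on the control diet (1.468 CPM) and of Neurog3 in PparD on the high-fat diet (0.0 CPM). The highest library stood apart for Sst in PparD on the control diet (2.955 CPM), Cck in PparD on the high-fat diet (2.866 CPM) and Neurog3 on the control diet in WT (1.338 CPM) and PparDA (1.521 CPM). Cpe had 1 library with a count in WT and PparD on the high-fat diet (1.417 and 1.433 CPM) and in PparD and PparA on the control diet (1.478 and 1.544 CPM).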

How the results depend on the processing

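The low-count filter moved the calls most. Without it the number of the 10 genes called was 1 in place of 0 for the diet in PparD, the diet averaged over genotypes, PparD against WT on each diet and PparA against WT on the high-fat diet, and 2 in place of 1 for PparDA against PparD on the control diet; the cause was not tested. Over all genes the calls without the filter numbered 78, 148, 85, 83, 288 and 325 in these 6 comparisons (PparD against WT on the control diet first), against 5, 19, 12, 1, 44 and 70 with it. The 1 call of that last comparison became 0 in runs 1 and 3 alone and in runs 2 and 4 alone, where 2 libraries a group remain, and leaving out single libraries gave 0 to 1. In the remaining alternatives no count moved, though DESeq2 gave no adjusted p in 37 of 84 tests of these genes, which are left out. The numbers in the columns pair no labelled replicates. With the run of library numbers as the replicate block, Chgb in this comparison kept its call (log2 fold change 2.39, edgeR adjusted p = 0.0132), and the block changed no other call among the 10 genes.

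Directions that changed were those of values that had not passed. In runs 1 and 3 alone the log2 fold change for the diet was 0.090 for Chgb in PparDA, -1.15 for Sst in WT, -0.28 for Tac1 in PparD and 0.18 for Tac1 in PparA. In runs 2 and 4 alone it was -0.10 for Sst in PparA, -0.95 for Tac1 in PparDA and -0.059 for Tac1 in the average. With limma it was 0.0035 for Sst in PparDA and 0.16 for Tac1 in PparA. Leaving out single libraries gave -0.96 to 0.90 for Sst in WT, -0.26 to 1.76 in PparA and -0.72 to 0.97 in PparDA. For Tac1 it gave -0.17 to 0.92 in PparD, -0.71 to 0.52 in PparA, -0.98 to 0.85 in PparDA and -0.055 to 0.49 in the average. The cause was not tested. Sct and Chgb kept the direction of their averaged diet difference in every alternative run. Group means of the summed CPM moved by less than 1 SD without TMM factors. Leaving out 1 of 4 libraries cannot move a group mean by 1 SD, so that alternative could not decide this. The 14 of 16 run pairs, recounted without TMM factors (an alternative chosen after seeing the data), numbered 14 again. Depth limits the 6 genes under the filter, for which 1 count is about 1.38 to 1.63 CPM before TMM scaling.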
